A study of Mus musculus with 8 samples.

Results

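The genes described here are those that make up the oxygen-sensing core of the cell: the alpha subunits of hypoxia-inducible factor (HIF) Hif1a, Epas1 and Hif3a, their shared partner Arnt, the prolyl hydroxylases Egln1, Egln2 and Egln3, the asparaginyl hydroxylase Hif1an, the ubiquitin ligase component Vhl and the inhibitor Cited2. They were chosen by symbol, as 10 of the 53465 genes in the count table, and 9 of the 10 had enough counts to be tested. MSCs (mesenchymal stem cells, a stromal population able to become bone, fat or cartilage), called bone-marrow cells in the labels and grown by the study out of collagenase-treated bone fragments, came from wild-type male C57BL6/N mice of 3 to 5 months and were cultured at 2% oxygen (hypoxia, 4 samples) or 21% oxygen (normoxia, 4 samples). Neither group is described with a genetic change or a drug, and both were kept in control medium. Cells negative for CD45 and Ter-119 and positive for Sca-1 and CD140a were sorted on day 12 of culture. Per the study the sort followed culture in hypoxia, and the sorted cells were then divided between the oxygen levels for a week, whereas the labels describe culture at either oxygen level before the sort. RNA was measured in bulk by RNA-seq as read counts per gene, and the question was how a change to high oxygen alters the transcriptome.

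Cells sense oxygen through HIF. When oxygen is present, the prolyl hydroxylases (the PHD proteins, encoded by the Egln genes) hydroxylate the alpha subunit, the VHL protein then binds it, and it is ubiquitinated and degraded, while the asparaginyl hydroxylase FIH (Hif1an) blocks its binding of the coactivators p300 and CBP. When oxygen is low, the alpha subunit is stable, pairs with ARNT and binds DNA at the core sequence RCGTG, where R is A or G. Egln3 and Egln1 are themselves well-known HIF targets, which closes a feedback loop, and the alpha subunit is regulated mainly at the protein level, which RNA counts do not measure. In bone, HIF signalling is known for coupling blood vessel growth to bone formation.

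Because genes that differed between the oxygen levels include known HIF targets, the sequences before their transcription starts are shown for the 4 genes whose counts passed the test described below. RefSeq promoter windows of 300 bases (250 before and 50 after the start, assembly GRCm38.p6) were found for 9 of the 10 genes, 10 windows in all, since Egln2 has 2 starts and Epas1 was not matched. The core was searched as ACGTG and as GCGTG on both strands, and a palindromic CACGTG holds ACGTG on each strand. The bases are printed 5′ to 3′ on the strand of the gene, up to the base before the first exon, with each match in capitals. The Hif1a run is chr12:73907617-73907866 on the forward strand and lies within the longer span that the GENCODE annotation gives the gene. The Egln1 run is chr8:124949325-124949504, the Egln2 run chr7:27166803-27167052 and the Egln3 run chr12:54203875-54204124, all on the reverse strand. The short Egln1 site, chr8:124949308-124949332, holds a match at the edge of the first exon.
Hif1a: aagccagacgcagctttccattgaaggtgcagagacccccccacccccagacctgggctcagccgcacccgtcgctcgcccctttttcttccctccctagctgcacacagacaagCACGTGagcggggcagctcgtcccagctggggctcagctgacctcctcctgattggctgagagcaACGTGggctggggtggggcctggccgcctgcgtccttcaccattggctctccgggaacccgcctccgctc
Egln1: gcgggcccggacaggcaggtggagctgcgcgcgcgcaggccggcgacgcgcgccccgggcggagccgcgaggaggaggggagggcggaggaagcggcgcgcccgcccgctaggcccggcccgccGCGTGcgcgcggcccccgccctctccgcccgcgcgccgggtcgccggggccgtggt
Egln1 site: gccgtggtgtACGTGcagcgcgcgc
Egln2: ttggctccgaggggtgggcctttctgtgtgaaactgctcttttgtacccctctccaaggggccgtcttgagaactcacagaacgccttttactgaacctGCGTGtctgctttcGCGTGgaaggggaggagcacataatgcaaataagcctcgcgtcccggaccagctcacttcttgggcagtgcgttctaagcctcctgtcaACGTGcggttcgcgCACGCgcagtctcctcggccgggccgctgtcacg
Egln3: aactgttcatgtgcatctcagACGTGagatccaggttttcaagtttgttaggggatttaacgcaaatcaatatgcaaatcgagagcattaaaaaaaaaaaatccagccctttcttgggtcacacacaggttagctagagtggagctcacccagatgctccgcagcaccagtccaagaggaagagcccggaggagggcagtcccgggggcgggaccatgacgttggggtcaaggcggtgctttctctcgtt

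Counting positions from the RefSeq start, where -1 is the last base before it, the Hif1a window held CACGTG from position -135 and ACGTG at -70. The Egln1 window held GCGTG at -126 and ACGTG at -68, and the Egln3 window held ACGTG at -229. The Egln2 window of the first start held 6 occurrences, of which 2, at -4 and -3, belong to a CACGTG that runs past the last printed base. Arnt, Hif3a, Cited2 and the second Egln2 start also held at least 1 match, and the windows of Vhl and Hif1an held none. Such matches are common, since 43.8% of all 32851 RefSeq windows and 60.6% of the 13459 windows of tested genes held at least 1. ACGTG was in 19.6% of all windows and in 24.8% of the windows of tested genes. GCGTG was in 32.4% and 49.2%. A match of 5 bases describes the sequence and does not show that HIF binds there.

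Total counts ranged from 12898291 to 13433824 in 7 samples and reached 25132141 in hypoxia sample 1, so the floor of 3 counts used here equals 0.119 to 0.233 CPM (counts scaled to library size). It covers counting error only. With limma-trend on log2 CPM and Benjamini-Hochberg adjustment over all tested genes, 34.6% of 14369 genes were called at an adjusted p-value of 0.05, 18% as higher and 16.5% as lower in normoxia. Scaled by total counts instead, the split was 69.6% higher among the called genes, against 52.2% with the scaling used here. The 4 values of the groups did not overlap for 32.6% of tested genes. Samples with the same number deviated together, so the replicate number was also fitted as a block, which called 46% of genes. The changes followed the GC content of transcripts (Spearman's rho -0.387 across genes, which are not independent replicates), and with a GC and length correction added to the block 43.2% were called. All MSC identity markers were detected, among them Ly6a (Sca-1) at 349 to 501 CPM and Pdgfra (CD140a) at 150 to 227 CPM. Their summed level was 85976 to 95041 CPM in hypoxia and 59627 to 64244 CPM in normoxia. Most of this sum was collagen, Col1a1 at 30300 to 58300 CPM and Col1a2 at 24800 to 34400 CPM. Of the 12 markers, 5 were called, given here as log2 changes. Cd44 (0.72), Nt5e (0.59) and Itgb1 (0.44) were higher in normoxia, and Col1a1 (-0.74) and Eng (-0.27) were lower. Neither of the genes of the positive sort markers was called, Ly6a being at -0.14 and Pdgfra at 0.24 (adjusted p = 0.260 and 0.0747 in limma-trend). Fitting the block called 4 of the 12 as higher and 6 as lower. All 10 blood and macrophage markers were also detected, their summed level being 592 to 1250 CPM in hypoxia and 666 to 1275 CPM in normoxia. They include Ptprc, the gene of the negative sort marker CD45, at 140 to 263 counts (8.27 to 19 CPM) across the samples. Its log2 change was 0.081 (limma-trend, adjusted p = 0.814). Lyz2, at 261 to 691 CPM, was higher in normoxia (log2 change 0.56) and Laptm5 lower (-0.91), and with the replicate block 1 of the 10 was called higher and 5 lower (limma-trend). The part of these marker changes in the results below was not tested. Of 8 red cell markers, 2 had a count in some sample. The 4 adult globin genes among them had 0 counts in every sample, and Alas2 had at most 1. Tfr2 had 35 to 64 counts (2.52 to 4.31 CPM) and was not called (log2 change -0.22, limma-trend, adjusted p = 0.370).

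Against this background, 4 of the 9 tested oxygen-sensing genes (44.4%, beside 34.6% of all tested genes) passed the test. Hif1a was higher in normoxia, and Egln1, Egln2 and Egln3 were lower. Epas1, Arnt, Hif1an, Vhl and Cited2 did not pass. The median log2 change, given throughout as normoxia minus hypoxia, was -0.11 over the 9 genes and 0.0049 over all tested genes. The groups did not overlap for 5 of the 9, the 4 called genes and Vhl, beside 32.6% of all tested genes. Adding the replicate block left the count at 4 (44.4%), under the 46% of all tested genes called in that fit. The count was 5 (55.6%, beside 43.2% of all tested genes) with the block plus the GC and length correction, where Hif1a and Cited2 were higher and Egln1, Egln3 and Vhl lower.

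**Figure D1:**
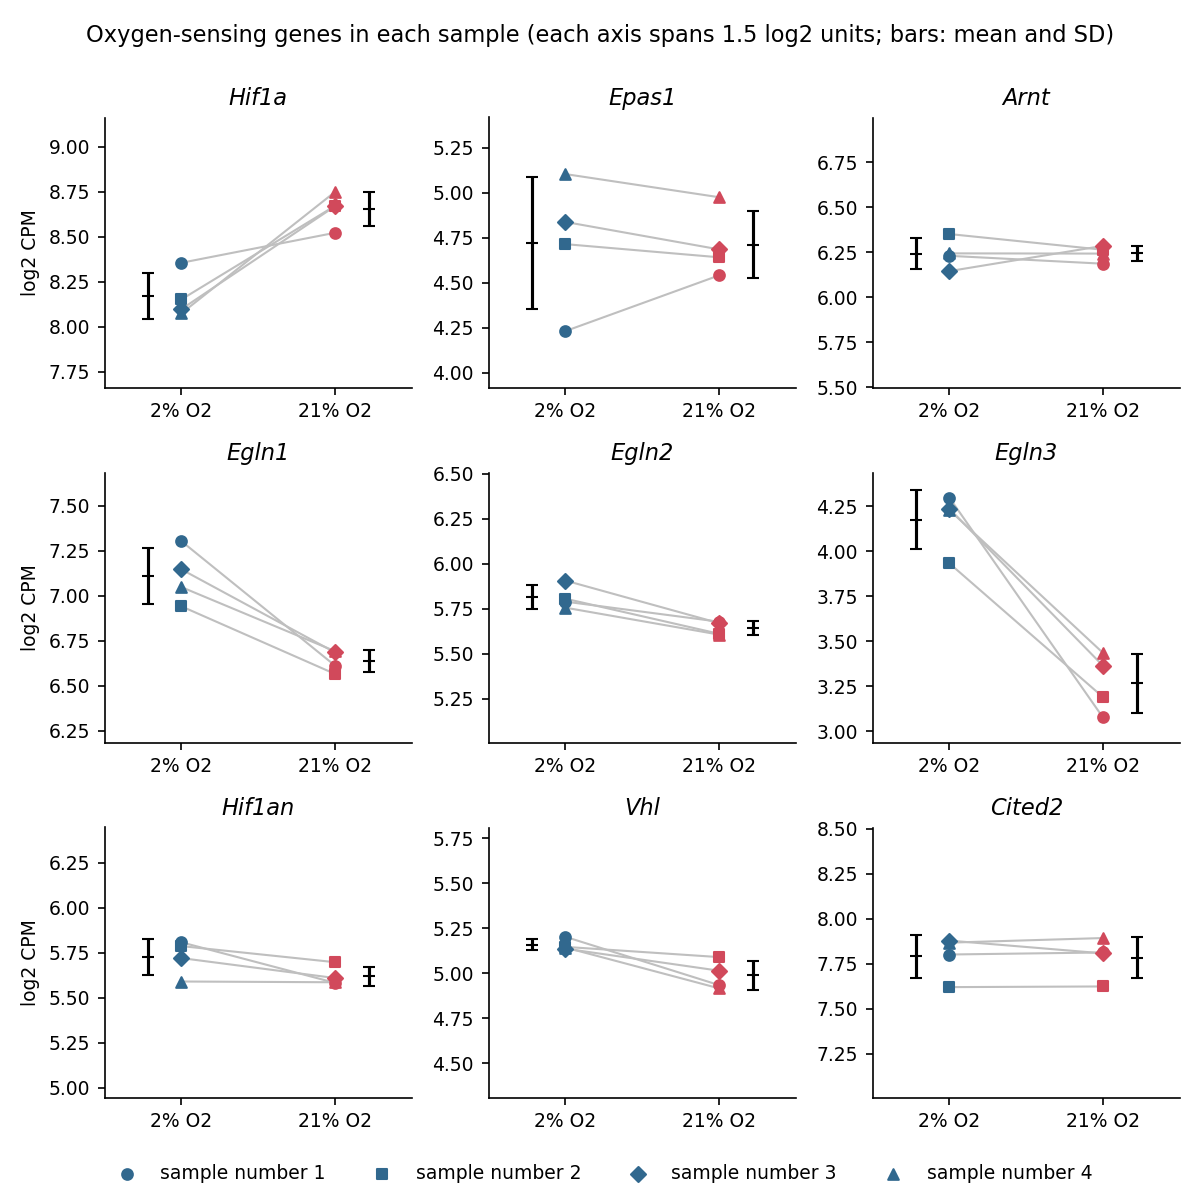
Log2 CPM of the 9 tested genes in each sample, at 2% oxygen (blue) and 21% oxygen (red). Marker shapes give the sample number, grey lines join samples with the same number, bars show the mean and SD of 4 samples, and every axis spans the same 1.5 log2 units. Lines rise for Hif1a and fall for Egln1, Egln2, Egln3, Hif1an and Vhl in all 4 pairs, and they go both ways for Epas1, Arnt and Cited2.

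Hif1a (ENSMUSG00000021109, chromosome 12, 73901375 to 73947530, forward strand) encodes HIF-1 alpha, the broadly expressed oxygen-regulated subunit. Its level was 327, 284, 274 and 269 CPM in hypoxia samples 1 to 4, and 367, 408, 407 and 430 CPM in normoxia samples 1 to 4. The groups did not overlap, and the samples numbered 1 were the closest to the other group on each side. On the log2 CPM scale the mean was 8.17 ± 0.13 (SD, n = 4) in hypoxia and 8.65 ± 0.095 (SD, n = 4) in normoxia. The transcript was therefore 1.40-fold higher in normoxia, a log2 change of 0.48 (SE 0.073), with a 95% interval of 0.32 to 0.64 (limma-trend, adjusted p = 0.000497). In bulk samples, fewer cells of a type and less RNA per cell cannot be told apart, here and for every gene below. All 4 numbered pairs were higher in normoxia, by 0.17 in pair 1 and by 0.52, 0.57 and 0.67 in the others. The GC and length correction with the block reduced the change to 0.26 (limma-trend, adjusted p = 0.00013), the Hif1a transcript having a GC content of 41.3%. Of its exon bases, 330 overlap the antisense gene Gm15283, which had 2 to 17 counts against 3500 to 7837 for Hif1a, and since the strand setting is not stated, reads of this pair cannot be told apart there. In addition, 148 exon bases overlap Gm49321, a protein-coding gene on the same strand, which had 0 counts in every sample. Strand cannot separate the reads of that pair.

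Epas1 (ENSMUSG00000024140, chromosome 17, 86753700 to 86833410, forward strand) encodes HIF-2 alpha, the subunit first known from blood vessel endothelium. Its level was 18.6, 26.1, 28.4 and 34.2 CPM in hypoxia samples 1 to 4, and 23.1, 24.8, 25.5 and 31.3 CPM in normoxia samples 1 to 4. The normoxia values lay within the range of the hypoxia values, with samples numbered 1 the lowest and samples numbered 4 the highest at both oxygen levels, and hypoxia sample 1 the lowest of all 8. The log2 change was -0.011 (SE 0.16) with a 95% interval of -0.35 to 0.33 (limma-trend, adjusted p = 0.965). With the replicate block the interval narrowed to -0.18 to 0.16 (limma-trend, adjusted p = 0.928), so a change in RNA of up to that size in either direction was not resolved. Of 10 endothelial markers, 7 had a count in some sample, and their sum was 4.25 to 6.94 CPM in hypoxia and 4.75 to 6.08 CPM in normoxia. Tie1, Emcn and Cldn5 had 0 counts, Pecam1 at most 2, and Cdh5 and Esam at most 3. The 4 with enough counts to be tested were Erg (8 to 50 counts), Tek (13 to 33), Egfl7 (16 to 33) and Kdr (1 to 10), and none was called (limma-trend).

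Hif3a (ENSMUSG00000004328, chromosome 7, 17031507 to 17062427, reverse strand), a more divergent alpha subunit with isoforms that oppose HIF-1, had 2 counts in each of hypoxia samples 1 and 3 and 0 in the other 6 samples. These values lie under the floor of 3 counts, and the gene was not tested. Its expression was thus not detectable at this depth, and no fold change can be given.

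Arnt (ENSMUSG00000015522, chromosome 3, 95434388 to 95497240, forward strand) encodes HIF-1 beta, the constitutive partner of all alpha subunits. It was at 74.8, 81.4, 70.5 and 75.5 CPM in hypoxia and 72.6, 76.6, 77.7 and 75.5 CPM in normoxia. The normoxia values lay within the range of the hypoxia values. The log2 change was 0.0020 (SE 0.060) with a 95% interval of -0.13 to 0.13 (limma-trend, adjusted p = 0.983), which bounds any change of Arnt RNA more tightly than for Epas1.

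The prolyl hydroxylases were lower in normoxia, and Egln3 differed most among the 9 genes. Egln3 (ENSMUSG00000035105, chromosome 12, 54178981 to 54203860, reverse strand) encodes PHD3, the family member best known as a hypoxia-inducible gene, with the ACGTG shown above at -229. Its level was 19.5, 15.1, 18.6 and 18.6 CPM in hypoxia samples 1 to 4, from 466, 188, 239 and 241 counts. In normoxia it was 8.24, 8.93, 10.1 and 10.6 CPM, from 111, 124, 140 and 141 counts. The lowest hypoxia sample was above the highest normoxia sample. Mean log2 CPM was 4.17 ± 0.16 (SD, n = 4) in hypoxia and 3.27 ± 0.16 (SD, n = 4) in normoxia. Egln3 RNA was 1.88-fold higher in hypoxia, a log2 change of -0.91 (SE 0.12), with a 95% interval of -1.16 to -0.66 (limma-trend, adjusted p = 0.000199). All 4 numbered pairs were lower in normoxia, pair 1 by the most at -1.22 and the others at -0.74 to -0.87. The change was -0.88 with the block plus the GC and length correction, and -0.86 without hypoxia sample 1 (limma-trend, adjusted p = 2.0e-08 and 0.00024).

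Egln1 (ENSMUSG00000031987, chromosome 8, 124908587 to 124949324, reverse strand) encodes PHD2, regarded as the main prolyl hydroxylase of HIF-1 alpha, and its window holds GCGTG and ACGTG, both shown above. Its level was 158, 123, 142 and 132 CPM in hypoxia samples 1 to 4, and 97.7, 94.6, 103 and 103 CPM in normoxia samples 1 to 4. The groups were well separated, hypoxia sample 2 being the lowest of its group and sample 1 the highest. Mean log2 CPM was 7.11 ± 0.15 (SD, n = 4) in hypoxia and 6.64 ± 0.061 (SD, n = 4) in normoxia. Egln1 RNA was 1.39-fold higher in hypoxia, a log2 change of -0.47 (SE 0.075), with a 95% interval of -0.63 to -0.31 (limma-trend, adjusted p = 0.000673). The 4 pairs ranged from -0.69 in pair 1 to -0.36 in pair 4, and without hypoxia sample 1 the change was -0.41 (limma-trend, adjusted p = 0.000487). The GC and length correction with the block reduced it to -0.35 (limma-trend, adjusted p = 1.9e-06).

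Egln2 (ENSMUSG00000058709, chromosome 7, 27158658 to 27166802, reverse strand) encodes PHD1, which is not regarded as a hypoxia-inducible member of the family. Its level was 55.1, 55.7, 59.8 and 53.8 CPM in hypoxia samples 1 to 4, and 50.98, 48.7, 50.7 and 48.5 CPM in normoxia samples 1 to 4. The groups did not overlap but lay close together, with 53.8 CPM the lowest in hypoxia and 50.98 CPM the highest in normoxia. The log2 change was -0.17 (SE 0.059), with a 95% interval of -0.30 to -0.044 (limma-trend, adjusted p = 0.040), a difference of 1.13-fold. This call depended on the processing: with the GC and length correction plus the block the change was 0.071 (95% interval -0.043 to 0.18; limma-trend, adjusted p = 0.318), the Egln2 transcript having the highest GC content of the 10 genes, 62.2%. It was also lost without hypoxia sample 2 or 3 or normoxia sample 2, 3 or 4, at limma-trend adjusted p-values from 0.056 to 0.115.

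**Figure D2:**
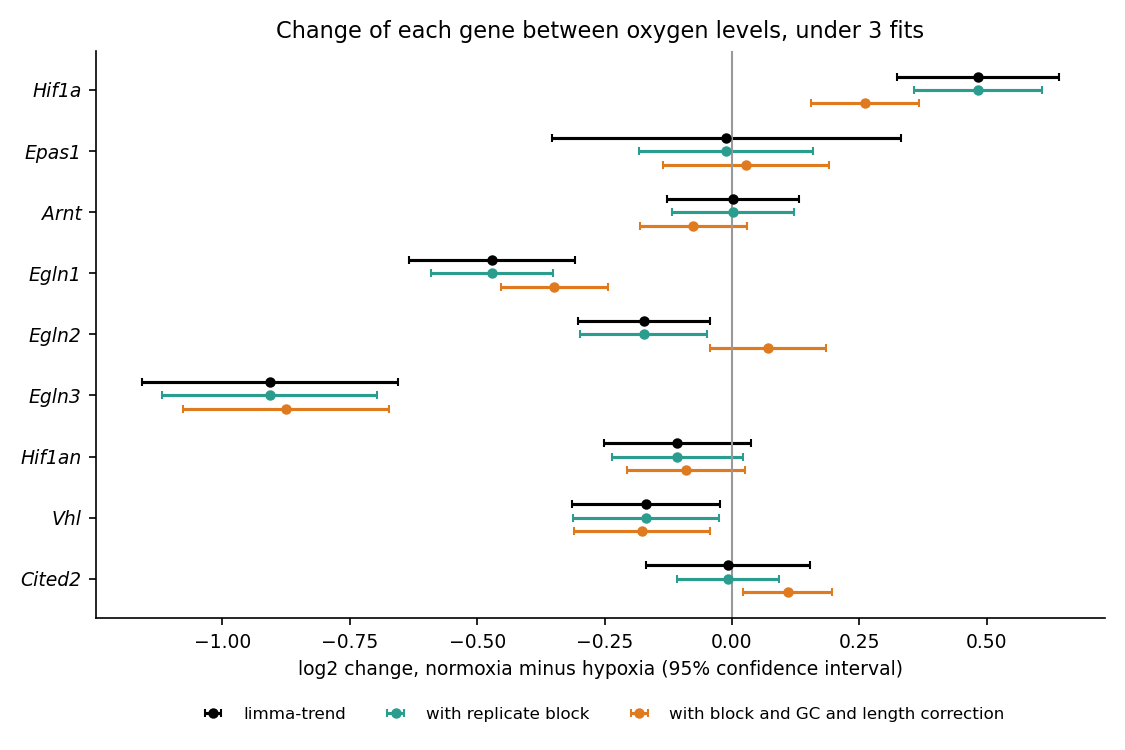
Log2 change of each tested gene, normoxia minus hypoxia, with 95% confidence intervals, from limma-trend alone (black), with the replicate block (green) and with the block and a GC and length correction (orange). Egln3 and Egln1 lie left of 0 and Hif1a right of 0 in all 3 fits, while Egln2 moves from -0.17 to 0.071 with the correction.

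Hif1an (ENSMUSG00000036450, chromosome 19, 44562850 to 44576274, forward strand), which encodes FIH, was at 55.8, 55.0, 52.5 and 48.0 CPM in hypoxia and 47.7, 51.7, 48.6 and 47.8 CPM in normoxia. Hypoxia sample 4 lay among the normoxia values and the other hypoxia samples above them. The log2 change was -0.11 (SE 0.066) with a 95% interval of -0.25 to 0.037 (limma-trend, adjusted p = 0.238). All 4 pairs were lower in normoxia, from -0.23 to -0.0043, but the difference did not pass the test.

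Vhl (ENSMUSG00000033933, chromosome 6, 113623959 to 113631633, forward strand), the substrate-binding part of the ubiquitin ligase, was at 36.6, 35.2, 34.9 and 35.1 CPM in hypoxia and 30.4, 33.8, 32.1 and 30.0 CPM in normoxia. The groups did not overlap, and all 4 pairs were lower in normoxia, from -0.27 to -0.057. The log2 change was -0.17 (SE 0.067) with a 95% interval of -0.31 to -0.024, as large as that of Egln2, and missed the threshold (limma-trend, adjusted p = 0.0688). With the replicate block it was on the threshold in limma-trend (adjusted p = 0.0512) and passed in edgeR's quasi-likelihood test (adjusted p = 0.0466). In limma-trend it also passed with the block plus the GC and length correction (-0.18, adjusted p = 0.0291), with upper quartile scaling (-0.20, adjusted p = 0.0360), without normoxia sample 2 (-0.21, adjusted p = 0.0451) and without pair 2 with the block (-0.21, adjusted p = 0.0425), whereas with total count scaling it was at -0.081 (adjusted p = 0.376).

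Cited2 (ENSMUSG00000039910, chromosome 10, 17723218 to 17725674, forward strand) encodes a protein that competes with the HIF alpha subunits for p300 and CBP. It was at 223, 196, 235 and 233 CPM in hypoxia and 225, 197, 224 and 237 CPM in normoxia. The groups overlapped, and the samples numbered 2 were the lowest in both. The log2 change was -0.0075 (SE 0.074) with a 95% interval of -0.17 to 0.15 (limma-trend, adjusted p = 0.950), and the largest difference within a pair was -0.071. Only with the block plus the GC and length correction together was it called, as higher in normoxia by 0.11 (limma-trend, adjusted p = 0.0378).

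The genes were also compared with each other as levels per length, in CPM per kb of exon. All are means ± SD of 4 samples. Cited2 was the highest at 90.3 ± 7.23 in hypoxia and 89.8 ± 6.91 in normoxia. Hif1a followed at 49.0 ± 4.49 and 68.3 ± 4.42, and Egln1 at 38.5 ± 4.15 and 27.7 ± 1.16 CPM per kb, in hypoxia and normoxia. Thus the 2 genes stood closer together in hypoxia than in normoxia. Egln2 was at 20.03 ± 0.917 and 17.8 ± 0.469 CPM per kb, Vhl at 11.8 ± 0.254 and 10.5 ± 0.591, and Arnt at 9.44 ± 0.557 and 9.44 ± 0.277. Hif1an was at 7.995 ± 0.534 and 7.41 ± 0.281 CPM per kb. The lowest measured were Egln3 at 6.74 ± 0.733 in hypoxia and 3.56 ± 0.407 in normoxia, and Epas1 at 4.80 ± 1.16 and 4.68 ± 0.635 CPM per kb. Egln3 was above Epas1 in hypoxia and below it in normoxia by their means, but in hypoxia the ranges of Egln3 (5.66 to 7.31) and Epas1 (3.33 to 6.11) overlapped, as did those of Egln3 and Hif1an (7.26 to 8.45). All other neighbours in the order had ranges that did not overlap. Divided by the longest transcript instead of all exons, Arnt was at 17.5 CPM per kb in both groups and stood above Vhl.

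**Figure D3:**
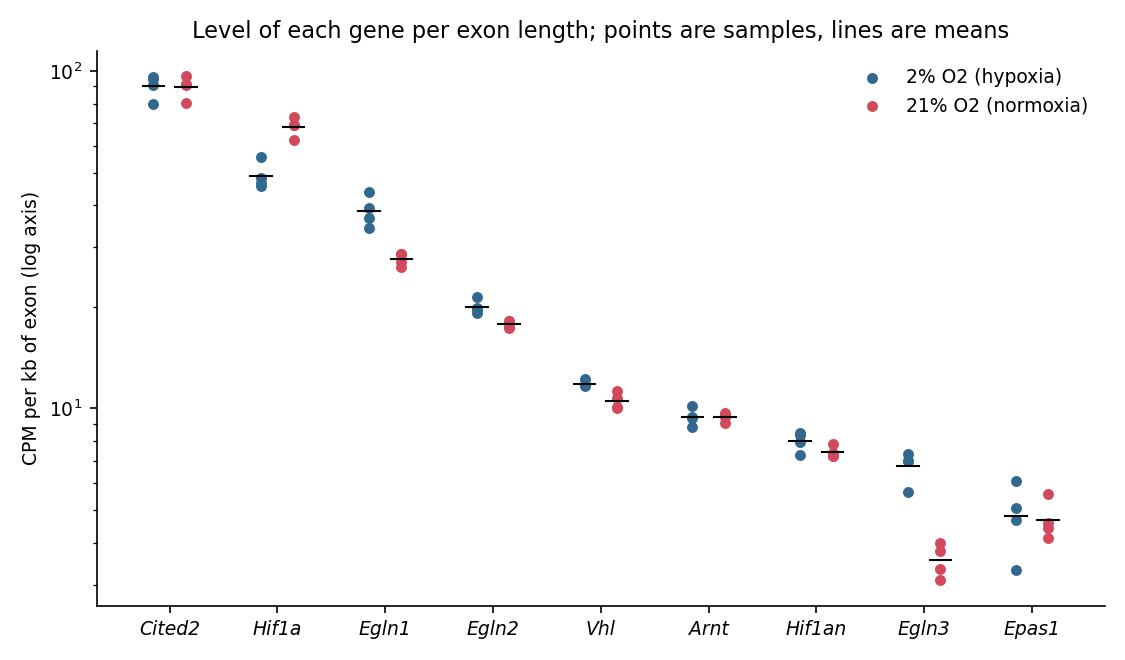
Level of each gene in CPM per kb of exon, on a log axis, in hypoxia (blue) and normoxia (red). Points are samples and lines are means of 4, with Hif3a left out because it lies under the floor. Levels span from 3.09 (Egln3 in normoxia sample 1) to 96.6 CPM per kb (Cited2 in normoxia sample 4).

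HIF-1 alpha and HIF-2 alpha share Arnt, so their transcripts were set against each other and against Arnt in each sample, per length, as a description. Hif1a exceeded Epas1 by 10.9 ± 4.03 times in hypoxia, with a range from 7.47 in sample 4 to 16.7 in sample 1, and by 14.7 ± 1.14 times in normoxia, with a range from 13.05 to 15.6. These ratios overlapped, with hypoxia sample 1 above all normoxia samples. Hif1a over Arnt was 5.20 ± 0.545 in hypoxia and 7.24 ± 0.366 in normoxia, with ranges of 4.74 to 5.94 and 6.87 to 7.74 that did not overlap. Divided by the longest transcript, the same ratio was 3.51 in hypoxia and 4.88 in normoxia.

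Of the summed Egln transcripts per length (mean ± SD, n = 4), Egln1 made up 58.9% ± 2.07 in hypoxia and 56.5% ± 0.674 in normoxia, Egln2 30.8% ± 2.32 and 36.2% ± 1.29, and Egln3 10.3% ± 0.649 and 7.25% ± 0.672. The share of Egln3 was 9.48% to 11.1% in hypoxia and 6.38% to 7.97% in normoxia. The share of Egln2 moved the other way, from 27.8% to 33.3% in hypoxia to 34.6% to 37.6% in normoxia. Neither share overlapped between the groups, while that of Egln1 did. Divided by the longest transcript instead, the mean Egln1 share was 53.5% in hypoxia and 50.5% in normoxia, and that of Egln2 37.1% and 43.03%.

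**Figure D4:**
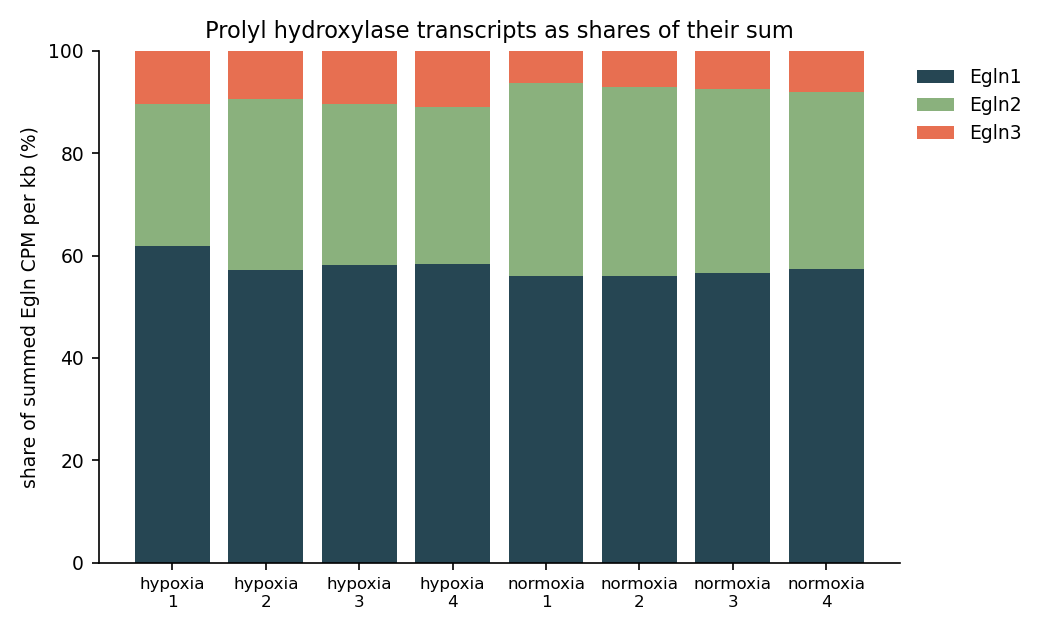
Share of Egln1, Egln2 and Egln3 in their summed CPM per kb, in percent, 1 bar per sample. The Egln3 share is at most 7.97% in the normoxia samples and at least 9.48% in the hypoxia samples, and Egln1 holds 55.9% to 61.9% in all 8.

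For the 3 called genes with the largest changes, the genes with the most similar pattern of log2 CPM over the 8 samples were listed among 9394 tested genes with a mean log2 CPM of at least 3. These correlations describe a likeness over samples that share the oxygen contrast and the libraries. Egln3 was most like Plod1, a collagen lysyl hydroxylase (Pearson's r 0.991), then Mri1 (0.987) and Slc3a2 (0.986). Egln1 was most like Trp53, which encodes p53 (0.991), Pdk1, a kinase that inhibits pyruvate dehydrogenase and a known HIF target (0.991), and the mitochondrial protease Lonp1 (0.987). Among the genes most like Hif1a were Wdr20 (0.992) and Gne (0.985). Egln1 and Egln3 had r of 0.967 with each other over the 8 samples.

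The other genes of the pathway were taken from 5 lists with 83 genes, of which 76 were tested and 34 passed (44.7%, beside 34.6% of all tested genes), 13 higher and 21 lower in normoxia. Among 28 classic HIF targets, the genes that HIF switches on in low oxygen, 27 were tested and 16 passed (59.3%), 2 higher and 14 lower in normoxia, with a median log2 change of -0.25 beside 0.0049 over all tested genes. Car9, a carbonic anhydrase of the cell surface that is among the most oxygen-responsive HIF targets, differed most, at -2.34 (SE 0.16, limma-trend, adjusted p = 9.8e-06), 5.06-fold higher in hypoxia. Ankrd37 was lower at -0.80, from only 8 to 27 counts per sample, and the lactate exporter Slc16a3 at -0.64, although its groups overlapped (limma-trend, adjusted p = 0.0267 and 0.0105). The 2 genes that were higher in normoxia were the transferrin receptor Tfrc, which brings iron into the cell, by 1.81, and Kdm3a, a histone demethylase that itself needs oxygen, by 0.56 (limma-trend, adjusted p = 0.000178 and 0.000393). Epo had 0 counts in every sample.

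Of 11 partners of VHL or of its ubiquitin ligase, not all of them parts of the ligase, all were tested and 4 passed (36.4%), 3 higher and 1 lower in normoxia, with a median of 0.055. The largest changes were those of Usp33, a deubiquitinase bound by VHL, at 0.72, of the ligase scaffold Cul2 at 0.35 and of the COP9 signalosome subunit Cops5 at 0.31 (limma-trend, adjusted p = 0.000383, 0.00788 and 0.00236). Elongin B (Elob), part of the adaptor between VHL and the scaffold, was the 1 that was lower, at -0.24 (limma-trend, adjusted p = 0.00725). The other part, elongin C (Eloc), was at 0.055 and not called (limma-trend, adjusted p = 0.657). With the block plus the GC and length correction neither Cul2, at 0.12, nor Elob, which turned to 0.093, was called (limma-trend, adjusted p = 0.131 and 0.0973). In that fit Eloc was called lower at -0.14 (limma-trend, adjusted p = 0.0466), and the list had 3 genes higher and 3 lower.

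Of 14 other proteins of the bHLH-PAS family of Hif1a and Arnt, with genes of aryl hydrocarbon receptor signalling, 11 were tested. Of these, 3 passed (27.3%, beside 34.6% of all tested genes), 2 higher and 1 lower. The share depended on the fit. It was 45.5% with the replicate block, beside 46% of all tested genes. With the block plus the GC and length correction it was 54.5%, beside 43.2%. Tiparp, a target of the aryl hydrocarbon receptor, was higher in normoxia by 0.90, the circadian factor Clock by 0.62, and the receptor Ahr itself was lower at -0.20 (limma-trend, adjusted p = 0.00536, 0.000131 and 0.0452). Of 10 HIF coactivators and relatives of Cited2, 8 were tested and 2 passed (25%, again under that of all tested genes), the mediator kinase Cdk8 higher at 0.52 and Crebbp, which encodes CBP, lower at -0.41 (limma-trend, adjusted p = 0.00245 and 0.0020). Ep300, which encodes p300, was at -0.15 and did not pass (limma-trend, adjusted p = 0.0982), but was called lower with the replicate block (limma-trend, adjusted p = 0.0319). With the block plus the GC and length correction it was at -0.11 and not called (limma-trend, adjusted p = 0.0790). Of 20 other regulators of HIF alpha, 19 were tested and 9 passed (47.4%), 5 higher and 4 lower. The chaperone Hsp90aa1, which protects HIF-1 alpha from degradation, was higher by 0.61 and the kinase Mtor by 0.41, and Rack1, which competes with HSP90 for HIF-1 alpha, was lower at -0.49 (limma-trend, adjusted p = 0.00152, 0.00191 and 0.000705). These lists mix proteins that act on HIF in opposite directions, and their medians lay between -0.049 and 0.12. With the replicate block the 5 lists together had 44 called genes (57.9%, beside 46% of all tested genes), 16 higher and 28 lower.

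**Figure D5:**
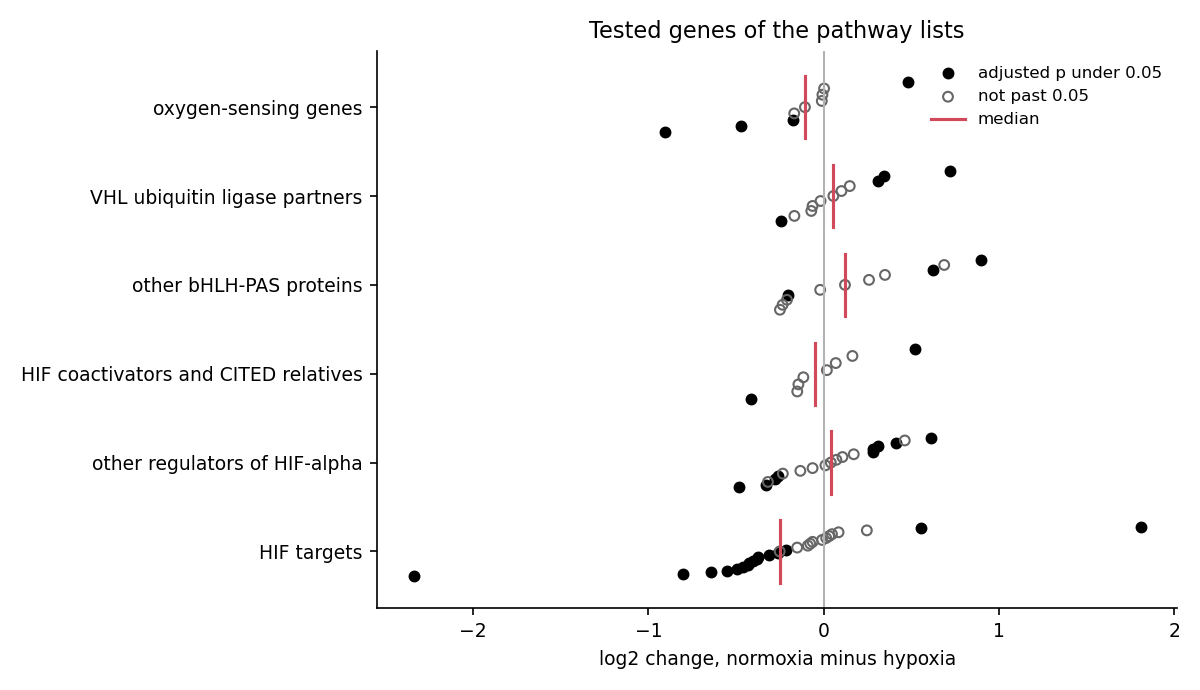
Log2 change, normoxia minus hypoxia, of the tested genes of each list, with filled points for an adjusted p-value under 0.05 in limma-trend, open points for the rest, and a red line at the median. The HIF targets have a median of -0.25, with Car9 at -2.34 and Tfrc at 1.81 as the ends, while the oxygen-sensing genes run from -0.91 (Egln3) to 0.48 (Hif1a).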

How the data were processed

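Bulk RNA-seq of MSCs grown from mouse bone was analysed for 4 hypoxia and 4 normoxia samples, grouped by the labels. The authors aligned single-end reads to the mm10 mouse genome with zUMIs and STAR, counted them per Ensembl gene with featureCounts, and deposited raw counts. The strand setting is not given in the sources used here. Symbols and positions came from GENCODE M21, on the same assembly (GRCm38), for 53360 of 53465 identifiers, and promoter sequences from RefSeq.

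As in the study, genes passed filterByExpr (minimum count 5; 14369 genes with 99.9% of the counts) and were compared by limma-trend (limma 3.58.1, R 4.3.3) on log2 CPM at an adjusted p-value of 0.05. TMM factors from edgeR 4.0.16 and a prior count of 3 were used, as neither is stated there. The log2 changes are on this moderated scale, which understates changes of genes with few counts. CPM values of genes are TMM-scaled, and levels per length are these CPM over the union of exons. The GC and length correction removed from each sample a spline with 5 degrees of freedom for each property. True changes that follow either property are removed with it, and 14353 genes were covered. No sample was left out.

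Both groups are numbered 1 to 4 in the labels, and per the study a sorted population was divided between oxygen levels. Across genes, the deviations of same-numbered samples from their group means correlated at 0.474, 0.275, 0.249 and 0.172, those of other pairs at -0.225 to 0.0757, so the numbers were taken as pairs. The study describes the samples as independent biological replicates, and no replicates agreed within sampling noise (chi-square per degree of freedom at least 3.66).

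The 10 genes and the pathway lists were chosen with earlier results of these data known. Named genes are the 10, the 3 called genes of each list with the largest absolute change (5 for HIF targets), checked markers, and the 3 genes most correlated with each of the 3 most changed called genes, of which 1 is not reported here. Elob, Eloc, Ep300 and Epo were named after their values were seen. Alternatives were edgeR's quasi-likelihood test, DESeq2 1.42.0, limma-voom, the block, the correction, and other scalings, filters, prior counts and thresholds, thinning of hypoxia sample 1, and leaving out each sample or pair. Methods were tested on simulated data.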

Additional observations from a re-analysis of the deposited data

Results flagged for a closer look

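Among the 32 sets of 4 values searched for a sample far from the others (by Dixon's criterion, which chance meets in about 1 in 20 sets, or 1.6 here), 2 stood out, both in hypoxia sample 1. Its total count reached 25132141, and the other 3 had 12929564 to 13219647. Its Vhl level was 5.20 log2 CPM, against 5.14 to 5.15 in the other 3, which lie very close together. Without hypoxia sample 1 the log2 change of Vhl was -0.15, against -0.17 with it (limma-trend, adjusted p = 0.125 and 0.0688).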

How the results depend on the processing

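In all 30 alternatives Hif1a (0.26 to 0.58), Egln1 (-0.53 to -0.35) and Egln3 (-0.99 to -0.81) kept their direction and their call. Between 3 and 5 of the 10 genes were called, beside 2925 to 6609 of all tested genes. At a threshold of 0.01, 2925 of all tested genes and 9 HIF targets passed, against 4970 and 16 at 0.05. The replicate block called 6609 of all tested genes, 4 of the 10 genes and 18 HIF targets, and changed no call among the 10. Genes near 0 changed sign. Epas1 was at 0.035 with limma-voom, 0.028 with the GC and length correction with or without the block, 0.076 with total count scaling, and -0.17 to 0.12 when samples or pairs were left out. Arnt was at -0.0090 with DESeq2, -0.0081 with its size factors, -0.027 with upper quartile scaling, -0.076 with the correction with or without the block, and -0.044 to 0.038 when samples or pairs were left out. Cited2 was at 0.11 with the correction, 0.081 with total count scaling, and -0.065 to 0.034 when samples or pairs were left out. Egln2 was at 0.071 with the correction with or without the block, and its call was also lost with total count scaling (limma-trend, adjusted p = 0.287), without a filter (0.0612) and without pair 2 or 3 (0.0645 and 0.123, with the block). The cause of these changes was not tested. With 4 samples a group and counts as low as 111, small changes of Epas1 and Egln3 are the least resolved, and Hif3a cannot be assessed.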
